A study of Capra hircus with 2 samples.

Results

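The endothelial cells of goat skin, which line the blood and lymph vessels, were examined in single-cell data from 2 Liaoning cashmere goats. They were chosen by their own RNA. A kept cell was taken when PECAM1, PLVAP and VWF together had at least 3 unique molecular identifiers (UMIs, each standing for 1 captured RNA molecule) and at least 5 UMIs per 10000 of the cell, and CD74 was under 20 per 10000. These limits took 165 of 13051 kept cells. Of them, 41 were among the 3443 cells of the coarse type goat (CT-LCG) and 124 among the 9608 cells of the fine type goat (FT-LCG). Cells with at least 20 CCL21 UMIs per 10000 are called lymphatic-like, cells with any SELE, SELP or ACKR1 UMI venular-like, and the rest other vascular.

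Both goats were described as healthy, their skin came from the scapular region, and both samples were labelled as anagen, the growth phase of the hair cycle. The study compared the coarse and fine fibre types to ask which skin cells and genes go with cashmere fineness. Each goat gave 1 library, so animal, library and fibre type cannot be told apart, and no test between CT-LCG and FT-LCG was made. The type of each cell was read from the deposited list of kept cells, since the labels of the samples leave it out. The tissue was digested to single cells, red blood cells were lysed and dead cells removed. The libraries shared 11 barcode sequences among kept cells, none of them in an endothelial cell.

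Blood vessel endothelium is a thin layer joined by cadherin and claudin junctions, and it controls what leaves the blood. In inflamed skin, white blood cells leave mainly through postcapillary venules, where the selectins SELE and SELP slow them and ACKR1 holds chemokines at the vessel wall. Lymphatic endothelium is kept in its state by the transcription factor PROX1 and secretes CCL21, which draws dendritic cells and T cells into lymph vessels.

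Endothelial cells made up 1.19% of the kept cells in CT-LCG (Clopper-Pearson 95% interval 0.856 to 1.61%) versus 1.29% in FT-LCG (1.07 to 1.54%). The intervals overlap, and they cover counting error only, as do all intervals below. The shares depended on the genes that choose the cells. The 27 other endothelial genes described below, used in place of PECAM1, PLVAP and VWF, took 5.00% of CT-LCG and 2.40% of FT-LCG cells, and 32 of those 172 and 122 of those 231 cells were members. A shorter list of 15 endothelial genes took 1.13% (39 cells) and 1.44% (138 cells). These cells included 27 of the 41 CT-LCG members and 115 of the 124 FT-LCG members. The endothelial cells held 189011 UMIs in CT-LCG, between 729 and 32449 per cell with a median of 2485. In FT-LCG they held 786441 UMIs, between 761 and 59033 per cell with a median of 3411.5. Levels below are UMIs summed over cells, per 10000, so levels in FT-LCG rest on more counts and have narrower intervals.

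**Figure D1:**
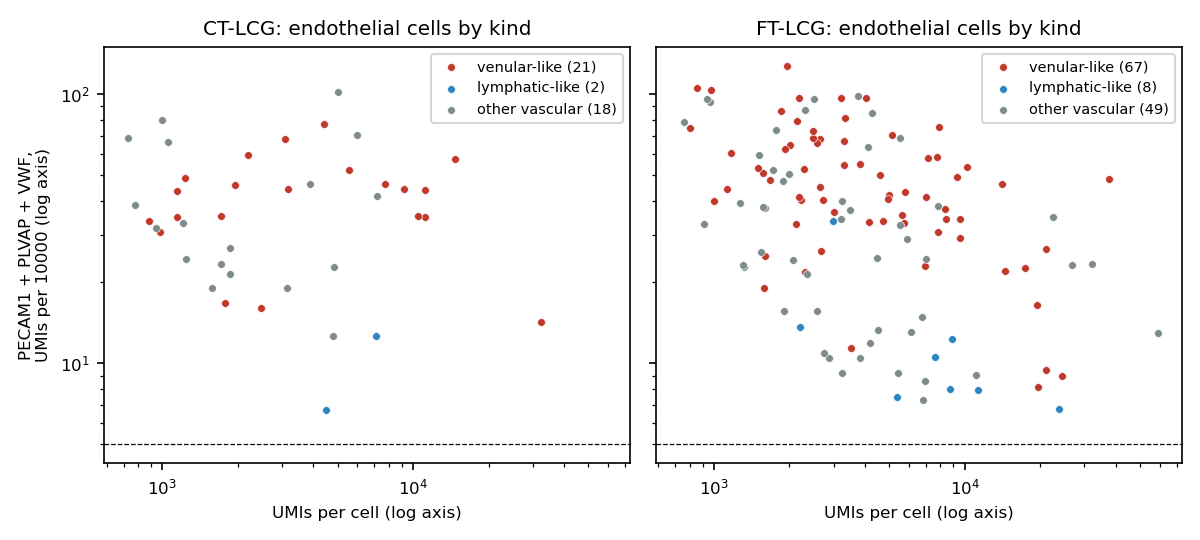
Each point is 1 endothelial cell of CT-LCG (41 cells, left) or FT-LCG (124 cells, right), with its UMIs on a log axis and its PECAM1, PLVAP and VWF UMIs per 10000 on a log axis, coloured by kind. The dashed line is the limit of 5 per 10000. Venular-like and other vascular cells overlap on both axes, and most lymphatic-like cells lie in the lower part of the panels.

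PECAM1, the adhesion molecule CD31 of endothelial contacts, was found in 39 of 41 members in CT-LCG and 114 of 124 in FT-LCG. PLVAP, which forms the diaphragms of endothelial pores and caveolae, was in 25 and 100 of them. VWF, the clotting glycoprotein stored in endothelial cells, was in 28 and 103. All 3 genes were present together in 19 of 41 cells in CT-LCG and 81 of 124 in FT-LCG (46.3% and 65.3%). UMIs of 1 gene alone chose 9 and 12 cells. Just inside the limits, 8 CT-LCG and 9 FT-LCG members had exactly 3 of these UMIs. Just outside, 9 and 10 kept cells had exactly 2 UMIs at 5 or more per 10000. The lowest member stood at 6.71 per 10000 in CT-LCG versus 6.76 in FT-LCG, and the highest cell left out by the level stood at 4.38 and 4.77. The CD74 limit left out 1 cell in CT-LCG versus 11 in FT-LCG, the nearest at 97.1 and 22.1 CD74 UMIs per 10000, while the highest members stood at 19.4 and 19.9.

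The label was checked on 27 endothelial genes that the limits did not use. At least 1 UMI of this list was present in 38 of 41 CT-LCG members and 123 of 124 FT-LCG members. The summed level of the list was 48.5 per 10000 in CT-LCG members against 1.06 in the other kept cells, and 85.6 against 0.546 in FT-LCG. Fewer than 3 of these UMIs were found in 9 CT-LCG and 2 FT-LCG members, and 8 of those 9 were other vascular cells. In 1 of them, a CT-LCG cell with 30 PECAM1 UMIs and no PLVAP or VWF, the list had 2 UMIs, while macrophage and dendritic cell genes other than CD74 had 66. The C1QA and TYROBP UMIs of the members all lay in 1 CT-LCG cell. Apart from such cells, the members held the genes of endothelium in both libraries.

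Markers of other skin cells were present at uneven levels. Keratinocyte genes, led by KRT10, summed to 239 per 10000 in CT-LCG members versus 121 in FT-LCG, below the 698 and 755 of the other kept cells. The excess of CT-LCG rests largely on 1 cell, which held 77.0% of its KRT10 and 72.7% of its KRT1 UMIs, and without the deepest cell of each library the log2 ratio of FT-LCG over CT-LCG went from -1.69 to 0.26 for KRT10. KRT14, KRT5, KRT10 and KRT1 exceeded 200 per 10000 in 8 CT-LCG and 12 FT-LCG members. Of these and the 1 FT-LCG cell over 20 per 10000 of fibrillar collagen, 2 and 7 were venular-like and 6 and 6 other vascular. The 6 T cell genes were all at 0 in both libraries, which allows up to 3 counts of each. Among pericyte and smooth muscle genes, RGS5 was at 0 in CT-LCG and at 52 UMIs in FT-LCG, in 2 cells, and 7 and 1 of the 10 genes were at 0. Fibroblast genes summed to 0.635 in CT-LCG members and to 3.27 in those of FT-LCG, against 2.48 and 1.96 in the other kept cells, and 1 FT-LCG cell held 93.8% of the COL1A1 UMIs there. Mast cell, melanocyte, Schwann cell and blood genes summed to at most 0.159 per 10000 in either library. The part of free RNA and of mixed cells in the levels below was not tested, other than by leaving the mixed cells out.

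Among the 2782 genes with at least 10 UMIs in the members of each library, 338 (12.1%) were at least 4-fold over the remaining kept cells in both libraries and 27 (0.971%) were at least 4-fold under. The median of the lower fold over all these genes was 1.06. Members were picked by RNA of the same cells and the minimum was set on the members' own UMIs, so these counts describe them and test nothing. Of the 27 endothelial genes outside the limits, 24 had enough UMIs, and all 24 were past 4-fold, with a median lower fold of 156. The remaining 3, MMRN2, ARHGEF15 and TAL1, had 9, 2 and 4 UMIs in CT-LCG.

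CDH5, the cadherin of endothelial junctions, was at 0.794 per 10000 in CT-LCG (Poisson 95% interval 0.444 to 1.31) versus 1.23 in FT-LCG (1.00 to 1.50), against 0.00253 and 0.00236 in the other kept cells. CLDN5, a claudin that seals vessel walls, was at 2.27 (1.65 to 3.06) and 3.27 (2.88 to 3.69), against 0.00758 and 0.00934. ESAM, a junction adhesion molecule, was at 0.899 and 1.82. These 3 were the junction genes past 4-fold out of 8 measured, and the others, such as CTNNB1 and JUP, are junction genes that epithelial cells also use. After thinning every cell to 1000 UMIs, 17.1% of CT-LCG members (6 cells left out) and 15.5% of FT-LCG members (8 left out) kept a CDH5 UMI. Before thinning the shares were 19.5% and 45.2%. In keratin-rich cells, whose median depth was 1932 and 6273 UMIs, the thinned shares were 0% (0 cells, which allows up to 0.129%) and 0.0433%.

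**Figure D2:**
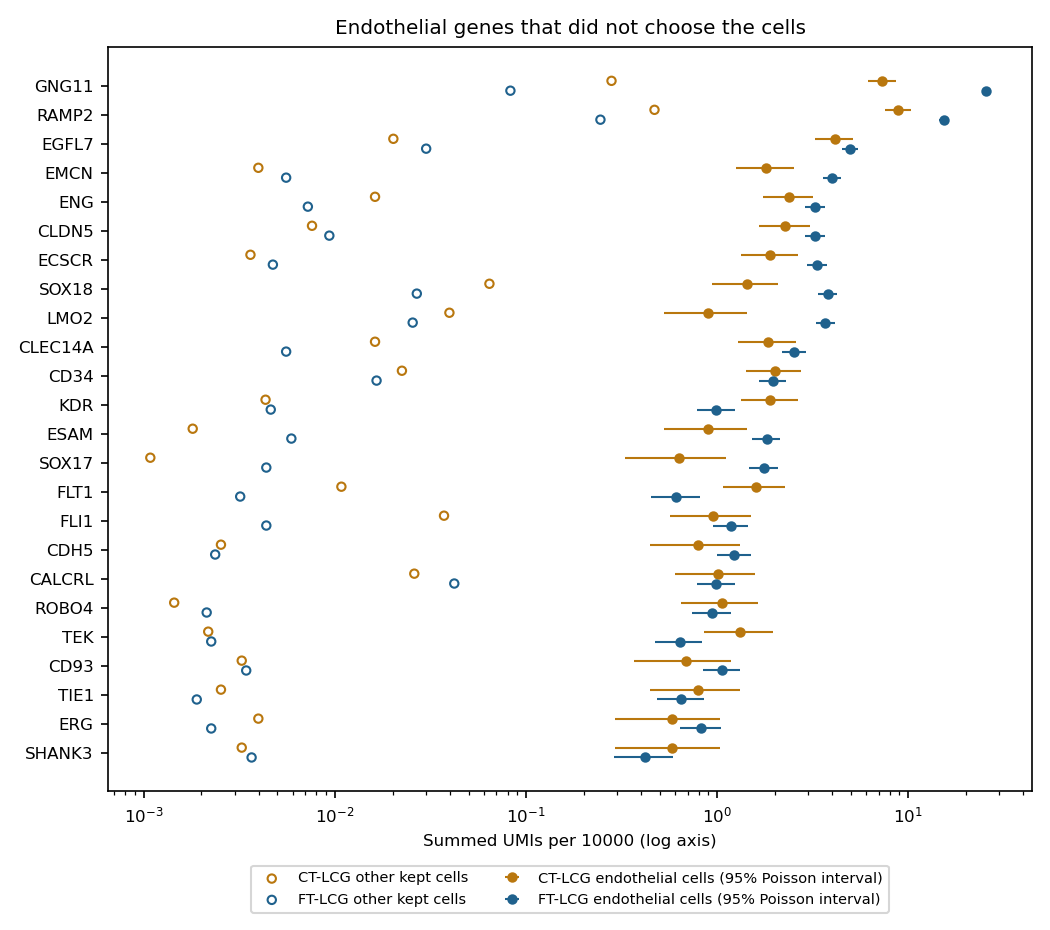
Summed UMIs per 10000 (log axis) of the 24 endothelial genes outside the limits with at least 10 UMIs in the members of each library, with 95% Poisson intervals for the members (filled) and the level in the other kept cells (open). In both libraries every member level lies well to the right of the open points, and for GNG11 and LMO2 the FT-LCG level exceeded that of CT-LCG.

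Receptors of vessel growth factors set the members apart. KDR, the main receptor for VEGFA, was at 1.90 per 10000 in CT-LCG (1.33 to 2.64) versus 0.992 in FT-LCG (0.784 to 1.24), against 0.00433 and 0.00461 elsewhere, but 1 cell held 61.1% of its CT-LCG UMIs. FLT1, another VEGF receptor, was at 1.59 and 0.610, and the co-receptor NRP1 at 1.16 and 0.890. VEGFC, a ligand for lymphatic growth, was at 1.01 and 0.509 against 0.00144 and 0.00213. VEGFA itself was not past 4-fold, with 0.952 and 0.674 in members against 1.79 and 0.522 in the other cells. Of the 9 genes of this family, 7 were measured and 5 were past 4-fold. TEK and TIE1, the receptors of the angiopoietin pathway, were at 1.32 and 0.794 in CT-LCG and at 0.636 and 0.648 in FT-LCG. TEK reached 611-fold and 283-fold over the other cells.

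Endothelial transcription factors were past 4-fold for 13 of the 18 measured. SOX18, which acts in vessel and lymphatic development, was at 1.43 in CT-LCG (0.941 to 2.08) versus 3.80 in FT-LCG (3.38 to 4.26). ERG, an ETS factor that keeps endothelial identity, was at 0.582 and 0.827, against 0.00397 and 0.00225 elsewhere. ETS1, another ETS factor, was at 5.50 and 5.28, against 0.396 and 0.266. KLF2, a factor raised by blood flow, was at 5.40 and 6.61, with folds of 15.5 and 11.5. Its relative KLF4 was at 12.8 and 10.9, against 20.7 and 11.3 in the other cells, in which keratinocytes also use it. NR2F2, a factor of venous and lymphatic fate, was at 2.17 and 2.37, against 0.0671 and 0.0515.

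The adrenomedullin receptor parts were all past 4-fold. RAMP2, which pairs with CALCRL, was at 8.89 in CT-LCG (7.60 to 10.3) versus 15.3 in FT-LCG (14.5 to 16.2). CALCRL was at 1.01 and 0.992, and RAMP3 at 1.38 and 1.54. The ligand gene ADM was at 0.265 and 0.470, against 0.618 and 0.289 in the other cells. AQP1, the water channel of vessel walls, was at 10.6 and 10.2, against 0.0159 and 0.0343. Its log2 ratio of FT-LCG over CT-LCG was -0.05, but this depended on the choice of cells. The ratio was 1.53 with members taken by the endothelial genes outside the limits, and -1.16 relative to the other kept cells. It was 0.83 after thinning and under 2-fold in the remaining settings.

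Caveola genes also stood high, with 7 of 8 past 4-fold, PLVAP among them as a gene of the limits. CAV1, the scaffold of caveolae, was at 2.22 in CT-LCG versus 4.50 in FT-LCG. The coat genes listed as SDPR (CAVIN2) and PRKCDBP (CAVIN3) were at 1.53 and 4.92 in CT-LCG and at 3.04 and 7.01 in FT-LCG. In the basement membrane list, 5 of 7 measured genes were past 4-fold. COL4A1 was at 5.18 and 4.11, and COL4A2 at 2.38 and 2.68. HSPG2, or perlecan, was at 0.899 and 1.35.

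In the blood clotting list, 4 of 6 measured genes were past 4-fold, VWF among them. THBD, which turns thrombin to an anticoagulant role, was at 1.27 and 1.70, against 0.0863 and 0.0703 elsewhere. F8, clotting factor VIII, was at 0.635 and 0.788, against 0.00866 and 0.00626. F3, tissue factor, was lower in members than in the other cells, at 0.688 against 4.67 in CT-LCG and 2.68 against 7.20 in FT-LCG. None of the 12 immediate early genes was past 4-fold, and their sum was 180 in members against 150 in the other cells of CT-LCG and 140 against 160 in FT-LCG. Of 8 cell cycle genes only PCNA had enough UMIs, at 0.847 and 0.750 against 1.25 and 0.936, and MKI67 and TOP2A were at 0 in CT-LCG members and had 5 UMIs in 1 cell and 7 UMIs in 3 cells in FT-LCG.

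The 15 genes with the largest lower fold over the other kept cells were ACKR1, PLVAP, SELP, ECSCR, CYYR1, MEOX1, SELE, FAM110D, CLEC1A, EMCN, ROBO4, CSF3, ADGRL4, APLNR and SOX17. PLVAP is a gene of the limits. ECSCR, an endothelial surface protein, was at 1.90 in CT-LCG versus 3.33 in FT-LCG, 528-fold and 705-fold over the others. MEOX1, a homeobox factor, was at 2.96 and 2.77, 1026-fold and 479-fold over. ROBO4, a guidance receptor of endothelium, was at 1.06 and 0.941. EMCN, a mucin-like glycoprotein of veins and capillaries, was at 1.80 and 4.01. APLNR, the apelin receptor, was at 0.529 and 0.763, its CT-LCG fold at least 489 because 1 UMI in the other cells was set to the floor of 3. CSF3, the growth factor of neutrophils, was at 1.75 (1.20 to 2.45) and 9.23 (8.57 to 9.93), against 0.00397 and 0.0119.

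Venular-like cells were 21 of 41 members in CT-LCG, or 51.2% (35.1 to 67.1%), and 67 of 124 in FT-LCG, or 54.0% (44.9 to 63.0%). As a description of the genes that define them, UMIs of all 3 were in 13 of 21 cells in CT-LCG and 42 of 67 in FT-LCG, and of 2 genes in 7 and 17 and of 1 gene alone in 1 and 8. SELE, or E-selectin, was in 20 and 61 venular-like cells, SELP, or P-selectin, in 19 and 59, and ACKR1 in 15 and 48. After thinning to 1000 UMIs, SELE was found in 31.4% of CT-LCG members and 41.4% of FT-LCG members (48.8% and 49.2% unthinned), against 0.343% and 0.376% of keratin-rich cells. For SELP the thinned shares were 42.9% and 38.8%, against 0.300% and 0.592%. For ACKR1 they were 25.7% and 30.2%, against 0.129% and 0.246%. Over all members, SELE was at 6.24 per 10000 in CT-LCG (5.17 to 7.48) versus 10.7 in FT-LCG (10.0 to 11.5), and SELP at 9.31 (7.99 to 10.8) and 14.1 (13.3 to 14.9). ACKR1 was at 8.94 and 8.85, but 1 cell held 59.8% of its CT-LCG UMIs.

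The median depth of venular-like cells was 3094 UMIs for CT-LCG and 3328 for FT-LCG, against 1787 and 3246 in other vascular cells. After thinning, 54.3% and 51.7% of members were venular-like. With SELE, SELP and ACKR1 left aside, 2653 genes had at least 10 UMIs in each library over both kinds of cell. Of these, 46 (1.73%) were at least 2-fold higher in venular-like cells in both libraries and 74 (2.79%) at least 2-fold lower. Without the deepest cell of each library 44 and 58 were, of which 34 and 46 were shared. By the mean over cells, 27 of the 46 and 40 of the 74 were shared. Of the 18 CT-LCG other vascular cells, 8 had fewer than 3 UMIs of the endothelial list. Without such members 43 genes were higher and 50 lower, of which 36 and 39 were shared. The other vascular cells also held UMIs of lymphatic genes. In FT-LCG, 7 of the 49 had a CCL21 or MMRN1 UMI, and these cells gave 30.3% of the UMIs of that kind, against 1 of 67 venular-like cells and 4.68%. Of the CT-LCG cells, 1 of 18 other vascular cells had such a UMI and no venular-like cell did. Without the cells that had one, 42 genes were higher and 79 lower, of which 38 and 61 were shared. Of the listed genes, AQP1 and CLEC14A were then no longer 2-fold higher in both libraries.

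Of 6 leukocyte adhesion genes measured, ICAM1 was higher in both libraries and none was lower. ICAM1, the ligand for leukocyte integrins, was at 6.14 in venular-like and 2.67 in other vascular cells of CT-LCG, and at 6.54 and 0.973 in FT-LCG. IL1R1, the receptor for interleukin-1, was at 1.40 and 0.205 in CT-LCG, and at 2.08 and 0.201 in FT-LCG. Besides SELE, SELP and ACKR1, 3 genes of the venous list were measured. Of these, 1, IL1R1, was at least 2-fold higher in venular-like cells in both libraries and none lower. NR2F2, also in that list, was not past 2-fold in both libraries. BIRC3, an NF-kB target that limits cell death, was at 6.22 and 2.26, and at 4.67 and 1.01. IL6 had 5 UMIs in CT-LCG versus 8 in FT-LCG, none of them in an other vascular or lymphatic-like cell. In the list of cytokine response genes, 1 of 7 measured, BIRC3, was at least 2-fold higher in venular-like cells in both libraries and none lower.

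CD74, the invariant chain of antigen presentation, was at 4.82 in venular-like and 0.615 in other vascular cells of CT-LCG, and at 6.06 and 0.235 in FT-LCG. It was found in 12 of 21 and 50 of 67 venular-like cells, and in 3 of 18 and 4 of 49 other vascular cells. Since cells with 20 or more CD74 UMIs per 10000 were never members, these levels are cut short at the top. CFB, complement factor B, was at 3.34 in venular-like cells of CT-LCG and at 0 in other vascular cells, a ratio of at least 5.43, and at 2.30 and 0.302 in FT-LCG. SOD2, a mitochondrial superoxide dismutase, was at 2.64 and 0.820, and at 6.56 and 1.61. CSF3 was at 2.33 and 0.615 in CT-LCG, and at 17.3 and 0.101 in FT-LCG, where it was in 29 of 67 venular-like cells and 2 of 49 others and 1 cell held 34.4% of its UMIs.

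The other genes that led this comparison were MAL, LYPD3, RND1 and FKBP11. RND1 was at 3.50 and 0.820 in CT-LCG, and at 5.60 and 1.78 in FT-LCG. MAL, a membrane traffic protein, was at 3.19 and 0.205, and at 2.20 and 0.503. LYPD3 should be read with care, as 1 CT-LCG cell held 90.5% of its UMIs. That library's deepest cell was venular-like and rich in keratins, at 686 KRT14, KRT5, KRT10 and KRT1 UMIs per 10000. In FT-LCG a venular-like cell with 24442 UMIs stood at 536. The 9 keratinocyte genes summed to 287 in venular-like and 150 in other vascular cells of CT-LCG, and to 158 and 88.5 in FT-LCG. Of these 9 genes, 3 were past 2-fold higher and 1 lower in venular-like cells in both libraries.

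TFPI2, an inhibitor of clotting proteases, was at 18.0 in venular-like and 4.31 in other vascular cells of CT-LCG, and at 87.3 and 33.8 in FT-LCG. AQP1 was at 13.8 and 4.72, and at 14.7 and 6.34, but at 15.4 and 8.91 in FT-LCG without the cells with a CCL21 or MMRN1 UMI. PLVAP was at 15.9 and 14.2 in CT-LCG, and at 19.4 and 10.2 in FT-LCG, so it did not reach 2-fold in either.

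**Figure D3:**
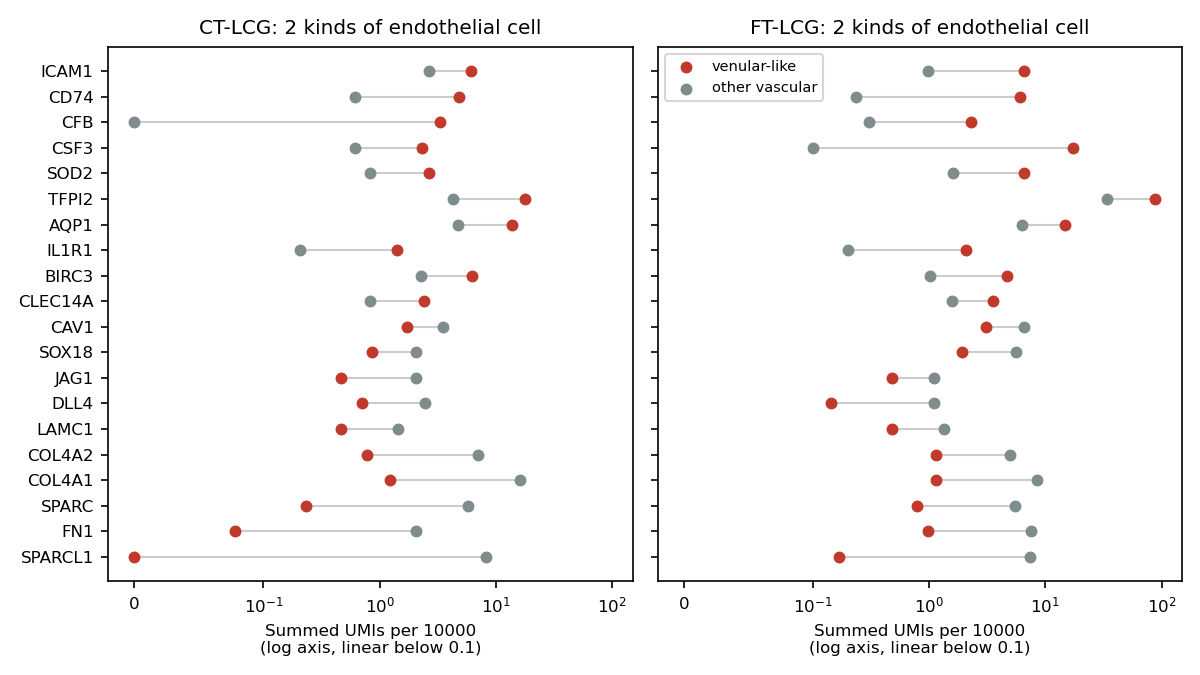
Summed UMIs per 10000 of 20 genes in venular-like (red) and other vascular (grey) cells of CT-LCG (21 and 18 cells) and FT-LCG (67 and 49 cells), on an axis that is logarithmic above 0.1. From ICAM1 down to CLEC14A the red points lie to the right in both libraries, and from CAV1 down to SPARCL1 to the left.

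Several matrix genes were lower in venular-like cells. SPARCL1, a matrix protein of vessel walls, was at 0 UMIs in the venular-like cells of CT-LCG and at 8.20 in its other vascular cells, and at 0.168 and 7.45 in FT-LCG. It was found in 6 of 18 and 32 of 49 other vascular cells. COL4A1 was at 1.24 and 16.2 in CT-LCG, and at 1.15 and 8.52 in FT-LCG. COL4A2 was at 0.777 and 6.97, and at 1.15 and 4.93. SPARC, a collagen chaperone, was at 0.233 and 5.74, and at 0.790 and 5.44. Of the 7 basement membrane genes measured, 4 were past 2-fold lower and none higher. In CT-LCG these values lean on few cells, since 1 cell held 61.2% of the COL4A1 UMIs, 51.1% of the COL4A2 UMIs and 64.5% of the SPARC UMIs. In FT-LCG no cell held more than 17.3% of the UMIs of these genes. For SPARCL1, 1 cell held 45.0% of the CT-LCG UMIs and 1 cell 19.7% of the FT-LCG UMIs.

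Of the 4 arterial genes measured, DLL4 was at least 2-fold lower in venular-like cells in both libraries, and CXCL12, EFNB2 and SEMA3G were not. DLL4, the Notch ligand of arterial and sprouting endothelium, was at 0.700 in venular-like and 2.46 in other vascular cells of CT-LCG, and at 0.144 and 1.11 in FT-LCG. JAG1, another Notch ligand, was at 0.466 and 2.05, and at 0.479 and 1.11. SOX18 was at 0.855 and 2.05, and at 1.92 and 5.57. CAV1 was at 1.71 and 3.49, and at 3.09 and 6.58. S100A4, a calcium-binding protein, was at 1.01 and 14.4 in CT-LCG, and at 1.05 and 26.3 in FT-LCG, where it was in 13 of 67 venular-like and 30 of 49 other vascular cells. Its level in the lymphatic-like cells of FT-LCG was 26.7. Without the cells with a CCL21 or MMRN1 UMI, it was at 0.477 in venular-like and 22.4 in other vascular cells there. FN1, or fibronectin, was at 0.0777 and 2.05, and at 0.982 and 7.58, although 1 cell held 43.8% of its FT-LCG UMIs. It was at 3.53 in the lymphatic-like cells of FT-LCG, and at 0.452 and 8.19 in the other kinds without the cells with a CCL21 or MMRN1 UMI. LAPTM5 and NR4A3, the remaining genes with the lowest ratios, were each in 2 other vascular cells of CT-LCG.

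Many arterial and capillary markers had few UMIs. Of 10 arterial genes, 4 had enough UMIs and 3 were past 4-fold over the other kept cells, CXCL12, DLL4 and SEMA3G. GJA5 and HEY2 had no UMI in CT-LCG. HEY1, a Notch target of arteries, had 6 UMIs in CT-LCG versus 21 in FT-LCG, at 0.0239 in venular-like and 0.638 in other vascular cells of FT-LCG. The capillary list summed to 14.8 and 15.2 per 10000, mostly from AQP1, and of its 3 measured genes AQP1 and APLNR were past 4-fold. Of its other genes, CA4 had 1 UMI in each library, and GPIHBP1, which holds lipoprotein lipase on capillaries, had 3 and 12 UMIs, none in a venular-like cell. CD36, a fatty acid carrier, was at 0.168 in venular-like and 0.906 in other vascular cells of FT-LCG, from 35 UMIs, and had 1 UMI in CT-LCG.

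Lymphatic-like cells were few, 2 in CT-LCG (4.88% of members, 0.596 to 16.5%) versus 8 in FT-LCG (6.45%, 2.83 to 12.3%). The 2 CT-LCG cells had 293 and 35 CCL21 UMIs, and the FT-LCG cells between 15 and 288. None of the 10 had a SELE, SELP or ACKR1 UMI. The lowest stood at 78.2 CCL21 UMIs per 10000 in CT-LCG versus 46.7 in FT-LCG, well above the limit of 20. Just outside it, the nearest FT-LCG cell stood at 16.3 and no other CT-LCG member had a CCL21 UMI.

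Some of the other lymphatic genes, which did not choose the cells, were present with CCL21. PROX1 and MMRN1, an extracellular matrix protein of lymphatic vessels, each had UMIs in 10 of the 10 cells. PROX1 was at 14.7 per 10000 in the CT-LCG cells and 6.36 in the FT-LCG cells. In venular-like cells it was at 0.544 and 0.383, and in other vascular cells at 0.615 and 3.12. MMRN1 was at 30.2 and 14.8 in lymphatic-like cells, and in venular-like cells at 0 and 0.263, the last from 11 UMIs of 1 cell. In other vascular cells it was at 0.410 and 2.95, in 1 of 18 and 7 of 49 cells. LYVE1, a hyaluronan receptor of lymphatic capillaries, was in 1 of 2 and 5 of 8 cells. FLT4, the receptor for VEGFC, was in 2 of 2 and 5 of 8, with 1 UMI in each of those 5. TFF3 and STAB2 had no UMI in any member.

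The FT-LCG values of PROX1 and MMRN1 in other vascular cells rest largely on 1 cell. It was the deepest member, with 59033 UMIs, of which 83 were PROX1, 68 MMRN1 and 96 CCL21, and it was the cell just under the CCL21 limit. PROX1 UMIs were also found in 8 of 39 CT-LCG and 15 of 116 FT-LCG members that were not lymphatic-like, 5 and 9 of them venular-like. Outside the members, 3 CT-LCG and 7 FT-LCG kept cells reached 20 CCL21 UMIs per 10000, and 2 and 6 of them had a PROX1, LYVE1, FLT4 or MMRN1 UMI.

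**Figure D4:**
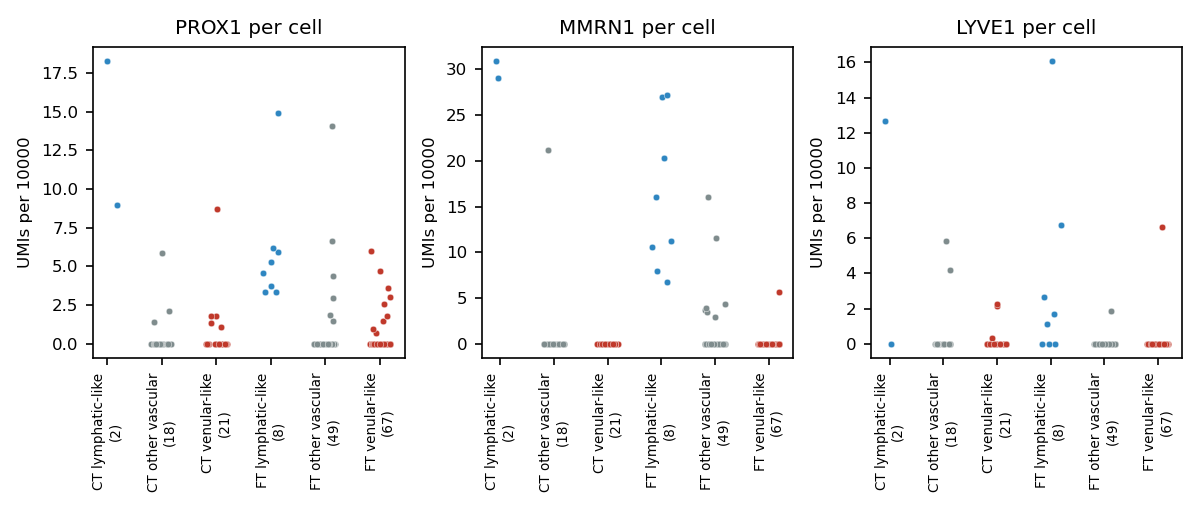
PROX1, MMRN1 and LYVE1 UMIs per 10000 in each of the 165 members, by library and kind of cell (number of cells in brackets, points spread sideways for view only). All 10 lymphatic-like cells lie above 0 for PROX1 and MMRN1, and most other members lie at 0.

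PLVAP and VWF were absent from the 2 lymphatic-like cells of CT-LCG and each in 3 of the 8 of FT-LCG. PECAM1 was in all 10, as the limits required of cells without the other 2 genes. Only FT-LCG had 5 or more lymphatic-like cells, so genes were compared there, among 7172 with at least 10 UMIs over all members. At least 4-fold higher than in the other members were 168 of them (2.34%), and 85 (1.19%) were at least 4-fold lower. With a minimum of 20 UMIs, 63 genes were past the fold. LYVE1 led, at 3.39 per 10000 against 0.0479 in venular-like and 0.369 in other vascular cells. SGCD, SCNN1B, FJX1, MSMP, KIAA1107, PRUNE2 and LRRN4CL followed with ratios from 14.2 to 18.5, each on 6 to 14 UMIs in 2 to 6 lymphatic-like cells. In the 2 CT-LCG cells 97 of 2818 genes were past 4-fold higher, and 9 of them were among the 168. SGCD, MSMP and PRUNE2 had no UMI in any CT-LCG member.

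Of the 10 lymphatic genes, 7 could be compared and 4 were past 4-fold higher, PROX1, MMRN1, LYVE1 and RELN. FLT4, PDPN and GATA2 were not past 4-fold either way. SDPR was at 9.61 in the lymphatic-like cells of FT-LCG, against 1.20 in venular-like and 4.06 in other vascular cells, and at 14.7 in those of CT-LCG. AQP1 was at 0.424 against 14.7 and 6.34 in FT-LCG, and at 0 in CT-LCG. ICAM1 and ENG had no UMI in the 8 cells. Of 25 endothelial genes outside the limits that could be compared, 5 were at least 4-fold lower in lymphatic-like cells, CD34, CLEC14A, ENG, ESAM and SOX17, and none was 4-fold higher. CLDN5 was at 5.51, against 1.60 and 5.07, and EMCN at 6.22, against 3.59 and 4.06.

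The same cells were set side by side between the libraries. Among 2671 genes with at least 50 UMIs in the members of both libraries together, 238 (8.91%) were at least 2-fold higher in FT-LCG and 145 (5.43%) at least 2-fold higher in CT-LCG. The median log2 ratio of FT-LCG over CT-LCG was 0.09. Of the 238, 61 were past 2-fold the same way in the other kept cells, as were 59 of the 145. Within both venular-like and other vascular cells, 50 of the 238 and 69 of the 145 were past 2-fold the same way. The matching shares over all 2671 genes are not given here, so these counts only describe the called genes. A single cell held over 50% of the UMIs in the higher library for 8 of the 238 (3.36%) and 28 of the 145 (19.3%), against 0.412% and 4.01% of all 2671 genes in FT-LCG and CT-LCG.

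Of 24 endothelial genes measured outside the limits, 6 were 2-fold higher in FT-LCG and 2 in CT-LCG, where 8.91% and 5.43% of all genes were, and their median log2 ratio was 0.48. GNG11, a G protein subunit, was at 7.30 per 10000 in CT-LCG (6.13 to 8.63) versus 25.6 in FT-LCG (24.5 to 26.8), a log2 ratio of 1.81. It was found in 42.9% of thinned CT-LCG members (26.3 to 60.6%) and 82.8% of thinned FT-LCG members (74.6 to 89.1%), against 61.0% and 93.5% unthinned. In keratin-rich cells the thinned shares were 1.54% and 1.07%. In the other kept cells GNG11 went the other way, with a log2 ratio of -1.76. It was 1.86 within venular-like and 1.88 within other vascular cells.

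TFPI2 was at 13.5 in CT-LCG (11.9 to 15.3) versus 60.3 in FT-LCG (58.6 to 62.1), a log2 ratio of 2.16 in members and 1.36 in the other kept cells. Relative to the other kept cells its log2 ratio was 0.79, under 2-fold. LMO2, a cofactor of blood and vessel development, was at 0.899 (0.524 to 1.44) and 3.69 (3.28 to 4.14), with 2.04 in members and -0.64 elsewhere. SOX18 had 1.41 in members and -1.26 elsewhere, and EMCN 1.15 and 0.48. Without the deepest cell of each library they were under 2-fold, at 0.98 and 0.82, while GNG11 was at 1.60 and LMO2 at 1.52. SOX17 had 1.47 in members but 2.01 elsewhere, CAV1 1.02 and 2.33, and ESAM 1.02 and 1.71. Relative to the other kept cells SOX17, CAV1 and ESAM thus turned, to -0.55, -1.31 and -0.70. Without the deepest cell of each library SOX17 was at 1.89, while CAV1 and ESAM were under 2-fold, at 0.71 and 0.83. Without members under 3 endothelial UMIs, the log2 ratios of GNG11, TFPI2 and LMO2 were 1.71, 2.05 and 1.91.

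In the direction of CT-LCG, FLT1 had a log2 ratio of -1.38, TEK of -1.06 and DLL4 of -1.13, from 30, 25 and 21 UMIs in CT-LCG. KDR was at -0.94, under 2-fold, and at 0.69 after thinning to 1000 UMIs. After thinning FLT1 was at -0.35, TEK at -0.59 and DLL4 at -0.51, all under 2-fold. With members taken by the 27 endothelial genes, KDR, TEK and DLL4 turned to 0.57, 0.57 and 0.44, and relative to the other kept cells FLT1 turned to 0.38. TNFAIP3, an inhibitor of NF-kB signalling, was at 1.69 in CT-LCG (1.16 to 2.39) versus 0.394 in FT-LCG (0.268 to 0.560), a log2 ratio of -2.10 in members and -1.31 elsewhere. Relative to the other kept cells its log2 ratio was -0.79, under 2-fold. HES1, a Notch target, had -1.26, although 1 cell held 33.1% of its UMIs in each library, and -0.66 without the lymphatic-like cells.

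ACKR1, AQP1 and CD34 had log2 ratios of -0.01, -0.05 and -0.05. PECAM1, PLVAP and VWF, whose levels in members were partly set by the limits, had -0.78, -0.02 and 0.22. These values moved with the choice of cells. PLVAP went to 1.30 and AQP1 to 0.83 after thinning, and ACKR1 to 1.14 without the deepest cell of each library. With members taken by the endothelial genes outside the limits, PECAM1 turned to 0.92. There VWF was at 1.72, AQP1 at 1.53, PLVAP and ACKR1 at 1.46 and CD34 at 0.76. Relative to the other kept cells, PECAM1 was at 0.58 and CD34 at 0.39. By that measure PLVAP and VWF were at -1.17, AQP1 at -1.16 and ACKR1 at -1.32. In the other kept cells PLVAP, ACKR1, AQP1 and VWF had log2 ratios of 1.15, 1.31, 1.11 and 1.39, from levels of at most 0.0343 per 10000.

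**Figure D5:**
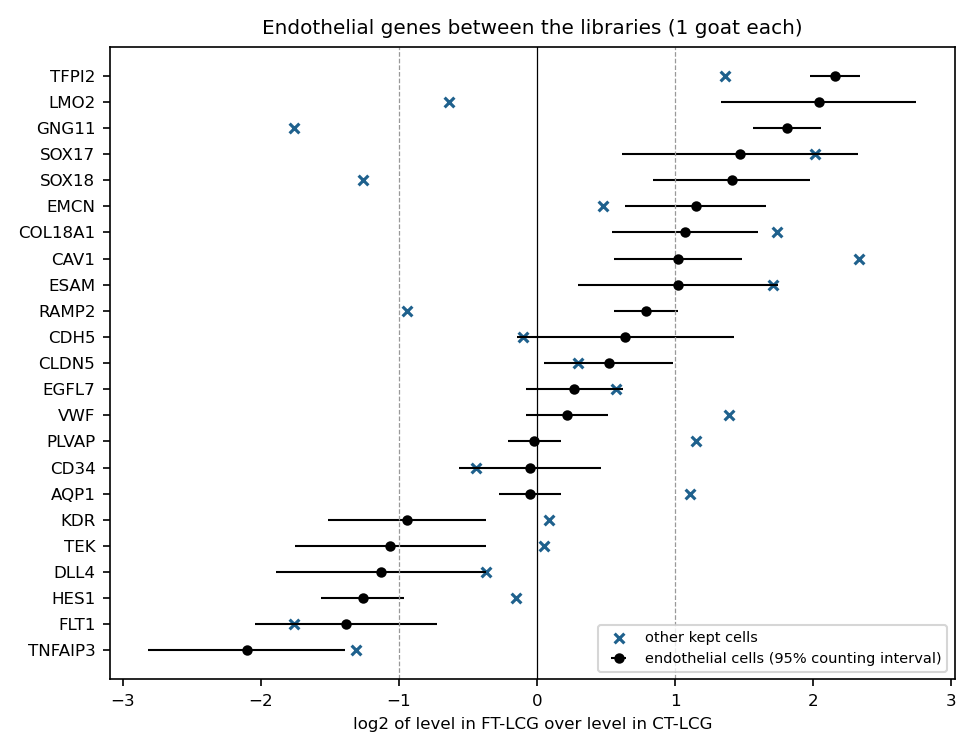
log2 of the level in FT-LCG over that in CT-LCG for 23 listed genes, 1 goat each, with dashed lines at 2-fold. HES1 and TNFAIP3 are from the Notch and cytokine response lists. Values are for the endothelial cells (black, with an approximate 95% interval from the UMI counts alone) and the other kept cells (crosses). GNG11, LMO2 and SOX18 lie to the right in endothelial cells and to the left elsewhere, and PLVAP, CD34 and AQP1 lie near 0.

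By size alone, the genes furthest toward FT-LCG were APOE, IGFBP5, SCIN, APOA1, DPY30 and CCDC80. Several of them rest on few cells. APOE, a lipid carrier, had 1 UMI in CT-LCG versus 165 in FT-LCG, in 7 cells of which 1 held 61.8%. IGFBP5, an IGF binding protein, was at 0.529 and 5.96, found in 3 and 24 cells, and was at 29.5 in the lymphatic-like cells of FT-LCG. Its log2 ratio of 3.49 became 4.43 without lymphatic-like cells and 2.44 after thinning. It was 2.52 relative to the other kept cells and 1.85 with members taken by the 27 endothelial genes. APOA1, the main protein of high-density lipoprotein, was at 0.635 (0.328 to 1.11) and 4.60 (4.14 to 5.10). It was in 5 of 41 and 51 of 124 members, and the log2 ratio was 2.86 in members and 2.88 in the other kept cells. DPY30, a subunit of histone methyltransferase complexes, was at 0.159 and 1.06, in 3 and 47 cells, with levels of 0.797 and 0.932 elsewhere. After thinning to 1000 UMIs, APOE, SCIN, DPY30 and CCDC80 were under 2-fold, at log2 ratios of 0.27, 0.01, 0.49 and 0.86. With members taken by the 27 endothelial genes their log2 ratios were 0.76, 0.21, 0.85 and 0.51. CCDC80 is also in the fibroblast list.

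Furthest toward CT-LCG were SPINK7, ACP5, ZBTB16, AQP3, S100A7A and TCHH. For SPINK7, AQP3 and ACP5, 1 cell held 86.2%, 86.6% and 90.7% of the CT-LCG UMIs. The log2 ratio of ACP5 went from -3.90 to -0.60 without members under 3 UMIs of the endothelial list, and to 0.47 with members taken by the 27 genes. That of AQP3 went from -3.30 to -0.56 without the deepest cell of each library. ZBTB16, a zinc finger factor, was spread, at 2.06 (1.47 to 2.82) in 20 of 41 cells and 0.203 (0.116 to 0.330) in 12 of 124. S100A7A, an epidermal S100 gene, was at 8.04 and 0.979, in 39 and 59 cells, with a log2 ratio of -3.04 in members and -2.14 elsewhere. TCHH, a hair follicle protein, was at 3.33 and 0.458, in 30 of 41 and 30 of 124 members, and the other kept cells, pooled, went the other way, at a log2 ratio of 1.32. With members taken by the 27 genes its log2 ratio turned from -2.86 to 4.60. Keratin-rich cells, collagen-rich cells and cells high in CD74 went the same way as the members, at 2.10 and 0.564, 2.61 and 0.822, and 1.87 and 0.340 per 10000.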

How the data were processed

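Skin of 1 CT-LCG and 1 FT-LCG goat was measured with the 10x Genomics 3' kit. The authors deposited UMI counts per gene and barcode in 1 matrix, made with Cell Ranger (version 3.0.2 in the file header) and not normalized, with a list of kept cells and their library. The submitters' processing notes also list bcl2fastq and Seurat 3.1.1. For the goat genome, build and annotation were not given in the sources used here. Rows of the matrix were 27137 features and its columns 17299 barcodes, of which the kept ones had 27890472 (CT-LCG) and 85400323 (FT-LCG) UMIs in all.

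The members, gene lists and limits were chosen with earlier results of these data known. Counts were summed per library and kind of cell and given per 10000 UMIs, with exact Poisson intervals for levels and Clopper-Pearson intervals for shares, at 95% and for counting error only. A count of 0 allows up to 3 counts, and folds were computed with counts under 3 set to 3 in the lower group. With 1 library per fibre type there was no test and no p-value. Genes past a fold were counted at 4-fold over the other kept cells and for lymphatic-like cells, and at 2-fold otherwise. The text names all listed genes it uses, the 15 largest folds over the other cells, 6 each way between libraries, 8 and 5 for venular-like cells and 8 for lymphatic-like cells, without ribosomal protein genes and unnamed loci. Of 260 listed genes 248 were among the features, and the rest are not analysed here. PTRF, SDPR and PRKCDBP stand for CAVIN1, CAVIN2 and CAVIN3. No doublet caller was run, and cells over 200 per 10000 of 4 keratins or 20 of 3 collagens were counted as mixed. Alternatives changed the limits, the weighting of cells, the minimum UMIs and the depth. Membership by 15 endothelial genes, and leaving out the deepest cells, the members under 3 endothelial UMIs or, for venular-like cells, the cells with a CCL21 or MMRN1 UMI, were added after the data were seen. The steps were run on simulated Poisson counts without spread between cells, so this cannot show how single deep cells affect the calls. Of simulated 4-fold changes, 99.5% were past 2-fold between the libraries, as were 1.73% of unchanged genes. For venular-like against other vascular cells these shares were 81.0% and 0%. Python 3.11.15, numpy 2.4.6, scipy 1.17.1, pandas 2.3.3 and matplotlib 3.10.9 were used.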

Additional observations from a re-analysis of the deposited data

Results flagged for a closer look

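Among barcodes that the list of kept cells leaves out, 7 FT-LCG barcodes of 1589 met the endothelial limits. Whether this number is unexpected was not tested. Of these 7, 6 had a UMI of another endothelial gene and 3 a SELE, SELP or ACKR1 UMI. In CT-LCG 1 barcode of 2659 met the limits. No barcode outside the list had more than 500 genes.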

How the results depend on the processing

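The endothelial shares were 5.00% in CT-LCG and 2.40% in FT-LCG when members were taken by the 27 other endothelial genes, and 0.813% in CT-LCG with at least 5 UMIs of the limits' genes. The venular-like and lymphatic-like shares stayed within their intervals in every alternative tried. Genes at least 4-fold over the other kept cells numbered 159 and 529 at 20 and 5 UMIs, 650 with members by the 27 genes, and 431 to 925 in 1 library alone. Those 4-fold under numbered 10 by the mean over cells, 51 with members by the 27 genes, 44 without mixed cells and 43 to 161 in 1 library. Of the 27 called under in the main setting, 2 were shared by the mean over cells. With members by the 27 endothelial genes 10 were shared, and without mixed cells 18. Genes 2-fold higher in FT-LCG and in CT-LCG numbered 398 and 229 by the mean over cells, 100 and 56 at 100 UMIs, 529 and 438 at 20 UMIs, 33 and 30 after thinning, and 538 and 659 with members by the 27 genes. Genes 2-fold higher and lower in venular-like cells numbered 194 to 541 and 412 to 957 in 1 library, and 13 and 6 after thinning. At 20 UMIs 21 were lower. For lymphatic-like cells 353 were higher by the mean over cells and 63 at 20 UMIs. In the 2 CT-LCG cells, 97 were higher and 15 lower, of which 9 and 10 were shared with FT-LCG. The log2 ratio of APOA1 became -0.03 relative to the other kept cells, and with members by the 27 genes those of ACP5 and TCHH became 0.47 and 4.60. Other minimum UMIs, thinning, members by the 27 genes, leaving out mixed cells and the use of 1 library changed the number of genes tested. In 1 library a gene also no longer had to pass in both. What else moved the counts and values was not tested. No paired analysis was possible because each fibre type has 1 library. The 41 CT-LCG cells, with 189011 UMIs, limit every comparison that uses both libraries, and many listed genes fell below the minimum UMIs there.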
